A study of Mus musculus with 8 samples.

Results

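Ribosome biogenesis factors are the proteins that make and assemble ribosomal RNA (rRNA), and 42 of their genes are described here in 32D cells with and without the glucose transporters GLUT1 and GLUT3. The members were a fixed list of gene symbols for nucleolar rRNA processing factors and RNA polymerase I subunits, each matched by its symbol to the gene table. All 42 were found among the 56748 genes listed, each on 1 row. All 42 also had at least 1 FPKM, fragments per unit of gene length and library size, in each of the 8 libraries.

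The 32D line is a mouse myeloid cell line from bone marrow that grows with interleukin-3 (IL-3). The series holds 8 RNA sequencing libraries in 4 groups of 2 clones each, numbered 1 and 3. Jak2WT GLUT1/3 WT cells carry unmutated Jak2 and both transporters, and Jak2WT GLUT1/3 dKO cells are double knockout (dKO) clones in which Slc2a1 and Slc2a3, the genes of GLUT1 and GLUT3, were targeted with CRISPR-Cas9. Jak2V617F GLUT1/3 WT and Jak2V617F GLUT1/3 dKO cells carry the V617F form of the kinase Jak2, the driver mutation of most myeloproliferative neoplasms, with and without the transporters. Cells of all 4 groups spent 24 h before RNA isolation in low-nutrient RPMI medium that held glucose at 5 mM, glutamine at 1 mM and IL-3 at 2 ng/ml. Each library is a separate clone of one cell line, so the p-values below set each difference against the spread between these clones. They do not cover variation between separately derived lines. All dKO clones of a background were reported with the same Slc2a1 deletion, so they may not be independent edits. Differences between groups cannot be told apart from differences between the founder cells of their clones.

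Ribosomes are built in the nucleolus. RNA polymerase I transcribes a long precursor rRNA, small nucleolar ribonucleoproteins (snoRNPs) guide its chemical modification, and a large assembly called the small subunit (SSU) processome folds and cuts it. The precursor particles of the small and the large subunit then mature apart from each other and are exported to the cytoplasm. Growing blood cells spend much of their energy on this process, and the transcription factor Myc is known as a main activator of its genes.

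Recovered reads on genes ranged from 16846011 to 48884329 per library, and the lowest count of a member in any library was 568 reads, for Bysl. A chi-square per gene of 8.02 to 35.2 between the separate clones within a group, where read counting alone would give about 1, was a spread that every comparison below is read against. Slc2a1 was at 44.7 and 48.4 FPKM in the Jak2WT GLUT1/3 WT clones and at 9.47 and 9.17 in their dKO clones, and in Jak2V617F at 64.0 and 53.0 with and at 17.3 and 12.7 without the transporters. Slc2a3 went from 97.7 and 91.9 FPKM to 16.0 and 49.5 in Jak2WT and from 198 and 166 to 48.2 and 23.8 in Jak2V617F, lower in every dKO clone than in the GLUT1/3 WT clones of its background. At an adjusted p under 0.05 in limma, both genes were lower with dKO in Jak2V617F and 1 of the 2 in Jak2WT. Of 12 myeloblast markers, 6 reached 1 FPKM, among them Prtn3, Spi1 and Il3ra, while Mpo, Elane, Kit and Cd34 did not in any library. Summed over the 12, the libraries ranged from 426 to 484 FPKM in Jak2WT GLUT1/3 WT, 296 to 383 in Jak2WT GLUT1/3 dKO, 354 to 363 in Jak2V617F GLUT1/3 WT and 148 to 152 in Jak2V617F GLUT1/3 dKO. Of 6 lymphoid markers, 0 reached 1 FPKM. Summed erythroid markers ranged from 94.0 to 112 FPKM in Jak2WT GLUT1/3 WT, 246 to 291 in Jak2WT GLUT1/3 dKO, 553 to 910 in Jak2V617F GLUT1/3 WT and 2582 to 4679 in Jak2V617F GLUT1/3 dKO. Summed megakaryocyte markers ranged from 63.2 to 63.7, 85.3 to 90.2, 177 to 189 and 187 to 240.1 FPKM and summed mast cell and basophil markers from 202 to 218, 167 to 222, 156 to 164 and 121 to 162 FPKM in the same order. Summed proliferation markers ranged from 779 to 805, 696 to 798, 460 to 499 and 816 to 896 FPKM in the same order. The part of these shifts in the results below was not tested, and in bulk RNA fewer cells of a type and less RNA per cell cannot be told apart.

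As a sum, the 42 genes were lowest in Jak2WT GLUT1/3 WT cells. Their summed level was 2484 and 2731 FPKM in the 2 clones of that group, 3303 and 3357 in Jak2WT GLUT1/3 dKO, 3528 and 3261 in Jak2V617F GLUT1/3 WT and 3111 and 3144 in Jak2V617F GLUT1/3 dKO. The 6 libraries of the other groups thus all lay above both Jak2WT GLUT1/3 WT clones. The members took 0.889% to 1.12% of the summed FPKM of a library. Jak2WT GLUT1/3 WT had the lowest group mean for 34 of the 42 members, Jak2V617F GLUT1/3 WT for 5 and Jak2V617F GLUT1/3 dKO for 3. The highest mean was in Jak2WT GLUT1/3 dKO for 19 members, in Jak2V617F GLUT1/3 dKO for 12 and in Jak2V617F GLUT1/3 WT for 11.

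**Figure D1:**
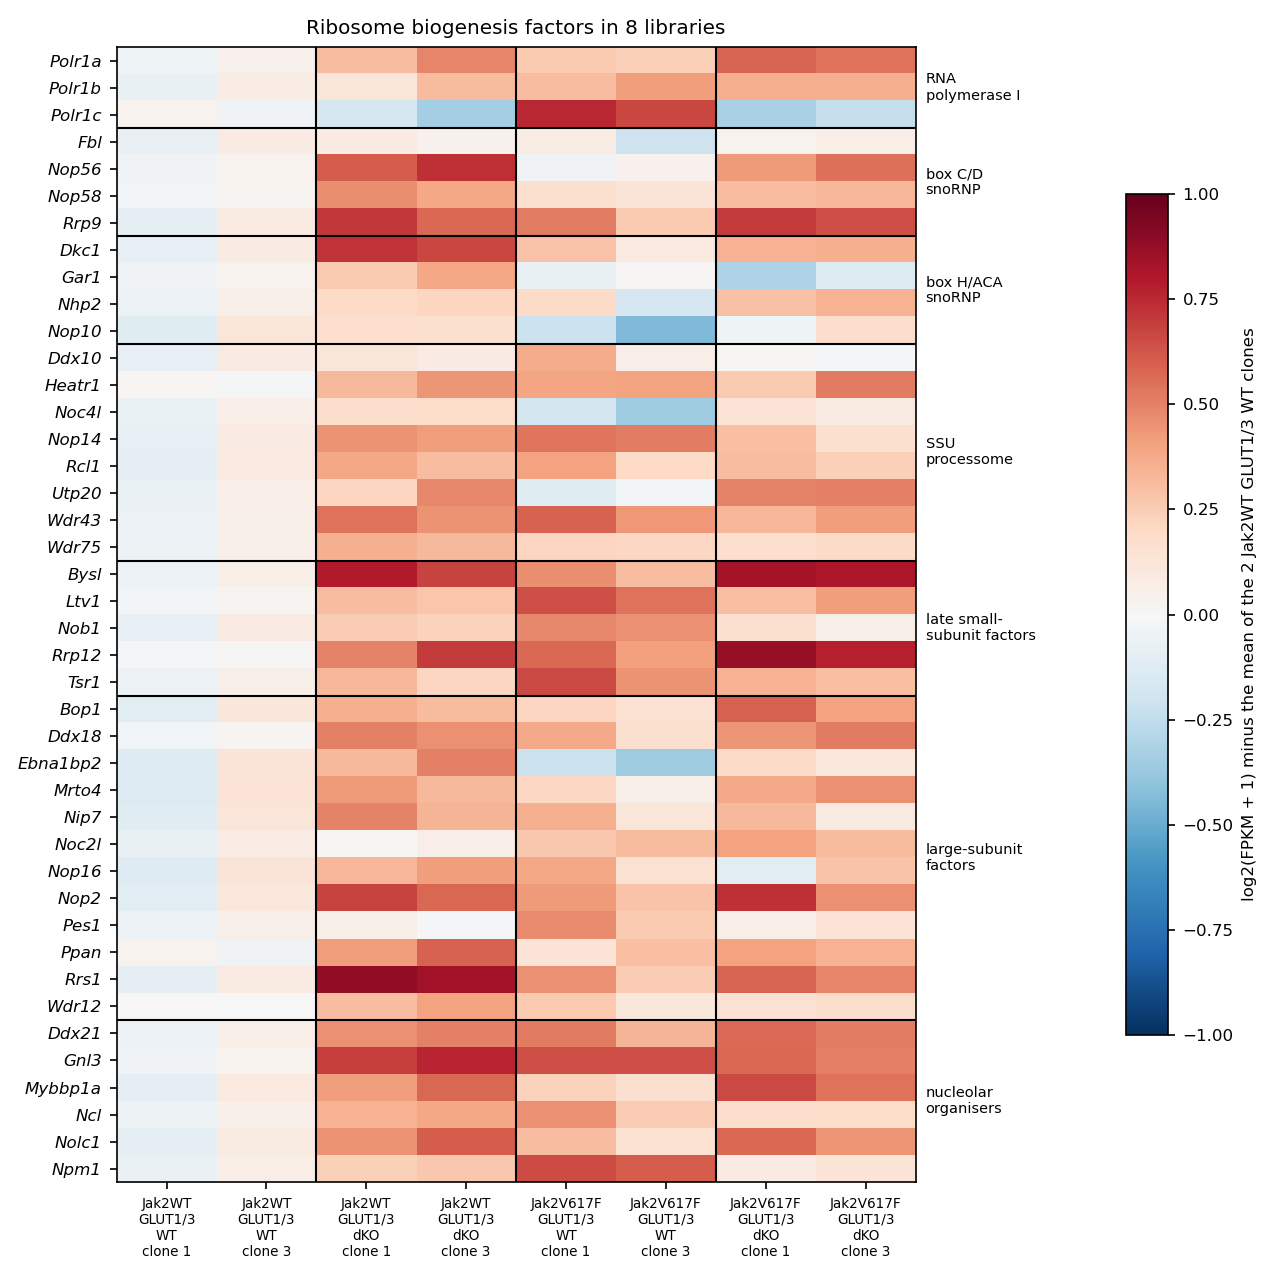
Each cell is the log2(FPKM + 1) of a member (rows, grouped by role) in a library (columns) minus the mean of the 2 Jak2WT GLUT1/3 WT clones, on a colour scale in log2 units. Most rows are red in the 6 libraries to the right of the Jak2WT GLUT1/3 WT pair, while Polr1c is red in the 2 Jak2V617F GLUT1/3 WT libraries alone.

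Levels per length of gene differed widely between the members. Npm1, an abundant nucleolar histone chaperone, was the highest at 743 to 1225 FPKM, followed by Ncl (nucleolin) at 224 to 320 FPKM. Polr1a, the largest subunit of RNA polymerase I, at 6.76 to 10.9 FPKM and Utp20 at 8.92 to 14.3 FPKM had the lowest means. Within a member, the highest library stood between 1.23 (Fbl) and 2.18 (Polr1c) times the lowest. Between the 2 clones of a group the median SD over the members was 0.09 on the log2 scale in Jak2WT GLUT1/3 WT, 0.06 in Jak2WT GLUT1/3 dKO, 0.11 in Jak2V617F GLUT1/3 WT and 0.05 in Jak2V617F GLUT1/3 dKO. The largest clone SD was 0.27, for Nop16 in Jak2V617F GLUT1/3 dKO.

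Some members share their place in the genome with another expressed gene. Of the 42, 14 overlap a gene with a mean of at least 1 FPKM, 12 of these a gene on the opposite strand, and the strand setting of the counting is not given in the sources used here, so reads of such pairs cannot be told apart. The partner was higher than the member for Mybbp1a (Spns2, mean 142 FPKM against 89.3) and Bysl (Ccnd3, 14.4 against 12.1), and lower for Nop56 (Idh3b, 43.0 against 102) and Gnl3 (Pbrm1, 22.0 against 47.6). Mrto4 has pseudogene copies, of which Mrto4-ps1 was listed at a mean of 6.22 FPKM against 22.0 for Mrto4.

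Start site sequences are shown for the 7 members that hold an E-box and for a few whose changes are described below. RefSeq windows of 250 bases before to 50 bases after the transcription start (GRCm38.p6) were found for 37 of the 42 members. The letters CACGTG, the E-box bound by Myc with its partner Max, stood in the windows of 7 of the 37 members (18.9%), against 20% of the 115 other ribosome biogenesis genes and 8.09% of all 27025 genes with a window. The stretches around it are printed 5′ to 3′ on the strand of the gene with CACGTG in capitals, and positions are counted from 1 at the start and from -1 before it.
Nop2 (from -70 to -45, chr6:125131813-125131838, plus strand): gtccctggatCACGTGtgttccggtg
Ltv1 (from 19 to 44, chr10:13193094-13193119, minus strand): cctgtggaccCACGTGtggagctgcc
Utp20 (from 28 to 50, chr10:88826765-88826787, minus strand): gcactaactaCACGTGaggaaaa
Pes1 (from -8 to 18, chr11:3963967-3963992, plus strand): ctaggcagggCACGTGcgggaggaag
Mybbp1a (from 31 to 50, chr11:72441357-72441376, plus strand): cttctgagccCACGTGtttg
Tsr1 (from 15 to 40, chr11:74898094-74898119, plus strand): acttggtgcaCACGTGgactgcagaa
Wdr43 (from 8 to 33, chr17:71616222-71616247, plus strand): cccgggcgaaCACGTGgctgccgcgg

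The letters CCGGAAG, a core that ETS family factors bind, stood on either strand in 13 of the 37 windows (35.1%), against 48.7% of the other ribosome biogenesis genes and 9.93% of all genes. The Nrf1 motif was found in 0 of the 37, in 2.61% of the other ribosome biogenesis genes and in 1.07% of all genes. Windows of the 57 ribosomal protein genes with a window held CACGTG in 10.5% and CCGGAAG in 40.4%. The 100 bases before the start are printed for Polr1c and Gar1, the members with the most negative called differences of the dKO and the background comparisons below, and for Nop2, which holds both motifs there; capitals mark CACGTG and, on either strand, CCGGAAG.
Polr1c (chr17:46248046-46248145, minus strand): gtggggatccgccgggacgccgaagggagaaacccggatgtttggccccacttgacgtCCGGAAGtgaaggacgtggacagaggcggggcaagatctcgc
Gar1 (chr3:129831397-129831496, minus strand): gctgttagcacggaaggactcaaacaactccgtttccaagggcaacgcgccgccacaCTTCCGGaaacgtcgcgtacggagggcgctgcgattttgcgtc
Nop2 (chr6:125131783-125131882, plus strand): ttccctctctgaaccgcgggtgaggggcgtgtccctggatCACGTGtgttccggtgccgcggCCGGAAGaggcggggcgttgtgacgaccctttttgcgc

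Loss of GLUT1 and GLUT3 in Jak2WT cells went with higher levels of ribosome biogenesis factors. In this comparison, which asks what the loss does without the mutation, 21 of the 42 members rose and 0 fell at an adjusted p under 0.05 in limma, against 7.62% of all 11818 genes tested that rose and 6.06% that fell. The median log2 fold change of the members, on the log2(FPKM + 1) scale used throughout, was 0.38, against 0.01 for all genes. The members lay at higher levels than most genes tested, with library medians of 5.08 to 5.63 against 3.06 to 3.12 on this scale. Shares of calls can depend on level, here and below, and no comparison with genes of like level was made. Both dKO clones lay above both GLUT1/3 WT clones for 38 members (34.1% of all genes), below them for 1 (32% of all genes) and overlapped for 3. By role, 5 of 6 nucleolar organisers, 3 of 4 box C/D proteins, 4 of 8 SSU processome proteins, 5 of 12 large subunit factors, 2 of 5 late small subunit factors, 1 of 4 box H/ACA proteins and 1 of 3 RNA polymerase I subunits rose. The count rested on all 4 Jak2WT libraries: 1 member rose without Jak2WT GLUT1/3 WT clone 1, and 4 rose without each of Jak2WT GLUT1/3 WT clone 3, Jak2WT GLUT1/3 dKO clone 1 and Jak2WT GLUT1/3 dKO clone 3, while the median stayed between 0.29 and 0.45. With every library scaled to the same summed FPKM, 17 members rose and 1 fell, and of all genes 706 rose and 1378 fell, in place of 901 and 716. In this comparison 2 of the 7 erythroid markers tested were higher, as were 2 of the 4 megakaryocyte markers, and of the 10 proliferation markers 0 were higher and 1 was lower, as was 1 of the 6 myeloblast markers.

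Among the nucleolar organisers, Gnl3 (nucleostemin), a GTPase of proliferating cells, was at 32.4 and 34.1 FPKM in the GLUT1/3 WT clones and at 54.4 and 57.2 in the dKO clones. Both dKO clones stood far above both controls, with a log2 fold change of 0.73, SE 0.07, adjusted p = 0.00374. Among the 21 rises it alone held under each of the 15 other settings, leaving out each library included. Nolc1, a chaperone of snoRNPs, was at 76.1 and 86.0 FPKM in the controls and at 111 and 124 in the dKO clones. Its groups did not overlap either, and its log2 fold change was 0.53, SE 0.11, adjusted p = 0.0221. Ddx21, an RNA helicase of rRNA transcription, went from 99.3 and 107 to 143 and 147 FPKM (0.48), Mybbp1a, a nucleolar regulator of transcription, from 65.6 and 75.0 to 93.9 and 105 FPKM (0.49), and Ncl from 224 and 240.4 to 296 and 304 FPKM (0.37). The 3 genes rose with no overlap of the clones. Npm1 was at 919.6 and 939 FPKM against 743 and 817 in the controls, and its log2 difference of 0.25 did not pass the test (adjusted p = 0.0906).

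The box C/D snoRNP, which guides ribose methylation of rRNA, rose in 3 of its 4 proteins. Nop56, a core protein of the particle, was at 78.9 and 83.4 FPKM in the controls and at 124 and 135 in the dKO clones, a log2 fold change of 0.67, SE 0.09, adjusted p = 0.00716. Rrp9, the protein that marks the U3 particle, was at 21.9 and 19.9 FPKM against 12.2 and 13.9 in the controls, with a log2 fold change of 0.64, SE 0.11, adjusted p = 0.0142. Every dKO clone was above every control clone for both genes. Nop58, the partner of Nop56, went from 30.04 and 31.3 to 42.8 and 40.4 FPKM (0.43). Fbl (fibrillarin), the methyltransferase of the same particle, was at 54.2 and 52.6 FPKM against 48.2 and 54.3 in the controls, with clones that overlapped, and did not pass the test (95% interval of the log2 difference -0.20 to 0.32).

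Of the box H/ACA snoRNP, which guides pseudouridylation, Dkc1 (dyskerin), the pseudouridine synthase itself, was at 61.5 and 68.9 FPKM in the controls and at 108 and 104 in the dKO clones. Its groups lay well apart, and the log2 fold change was 0.70, SE 0.09, adjusted p = 0.00755. Gar1 was at 43.6 and 47.8 FPKM against 35.3 and 37.1 in the controls, with a log2 difference of 0.33 that missed the threshold (adjusted p = 0.0595). Nhp2 and Nop10 also lay higher in both dKO clones and missed it, with adjusted p-values of 0.292 and 0.409.

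Of the 3 RNA polymerase I subunits, 1 passed the test. Polr1a was at 6.76 and 7.24 FPKM in the controls and at 8.91 and 10.2 in the dKO clones, a rise of 0.40 on the log2 scale. Polr1b, the second largest subunit, was at 12.5 and 14.5 FPKM against 10.8 and 12.1 in the controls and did not pass the test. Polr1c, a subunit shared with RNA polymerase III, was at 32.1 and 28.4 FPKM against 37.1 and 35.2 in the controls, the only member with both dKO clones below both controls, at a log2 difference of -0.25 that did not pass (adjusted p = 0.102).

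In the SSU processome, Wdr43 and Wdr75, which bind the precursor early and couple its transcription to processing, both rose. Wdr43 went from 49.0 and 53.4 to 74.9 and 70.3 FPKM (0.50) and Wdr75 from 22.8 and 24.4 to 30.4 and 29.8 FPKM (0.34). Nop14 rose by 0.44, from 31.3 and 35.0 to 45.6 and 44.6 FPKM, and Heatr1, a scaffold of the same early module, by 0.38, from 19.5 and 19.0 to 24.5 and 26.5 FPKM. The clones of the 4 genes did not overlap between the groups. Utp20, Rcl1, Noc4l and Ddx10 were also higher in both dKO clones than in both controls, with log2 differences of 0.35 for Utp20 and 0.35 for Rcl1, and did not pass the test.

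Of the late small subunit factors, Bysl was at 7.72 and 8.49 FPKM in the controls and at 14.7 and 13.5 in the dKO clones, with a log2 fold change of 0.73, SE 0.09, adjusted p = 0.00636. Rrp12, an export factor of precursor particles, was at 23.3 and 26.9 FPKM against 16.1 and 16.3 in the controls, with a log2 fold change of 0.60, SE 0.10, adjusted p = 0.0124. The levels of both genes were above the controls in each dKO clone. Ltv1, Tsr1 and Nob1, which act on the particle after or during export, lay higher in both dKO clones by 0.29, 0.27 and 0.24 on the log2 scale and did not pass the test.

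The largest rise of all members was that of Rrs1, a large subunit factor that helps bring the 5S particle into the precursor. Rrs1 was at 33.2 and 37.9 FPKM in the controls and at 66.3 and 64.2 in the dKO clones, with a log2 fold change of 0.86, SE 0.10, adjusted p = 0.00576. Nop2, an rRNA methyltransferase whose start site sequence is printed above, was at 63.1 and 58.8 FPKM against 36.3 and 42.4 in the controls, with a log2 fold change of 0.62, SE 0.12, adjusted p = 0.0199. Ppan, a factor of early large subunit assembly, was at 25.3 and 28.6 FPKM against 19.1 and 18.2 in the controls, with a log2 fold change of 0.50, SE 0.09, adjusted p = 0.0177. The clones of these 3 genes kept clear of each other. The helicase Ddx18 rose by 0.48 (46.3 and 48.2 to 67.3 and 65.1 FPKM) and Wdr12 by 0.35 (10.2 and 10.1 to 12.8 and 13.7 FPKM). Wdr12 works in the PeBoW complex with Bop1 and Pes1, and neither partner passed the test: Bop1 was at 34.6 and 33.5 FPKM against 24.6 and 29.0 in the controls, higher in both dKO clones (adjusted p = 0.0723), and Pes1 at 63.8 and 60.5 FPKM against 59.0 and 63.8 in the controls, with overlapping clones. Ebna1bp2, Nip7, Mrto4 and Nop16 were higher in both dKO clones by 0.41, 0.42, 0.38 and 0.37 on the log2 scale and did not pass, and Noc2l overlapped.

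**Figure D2:**
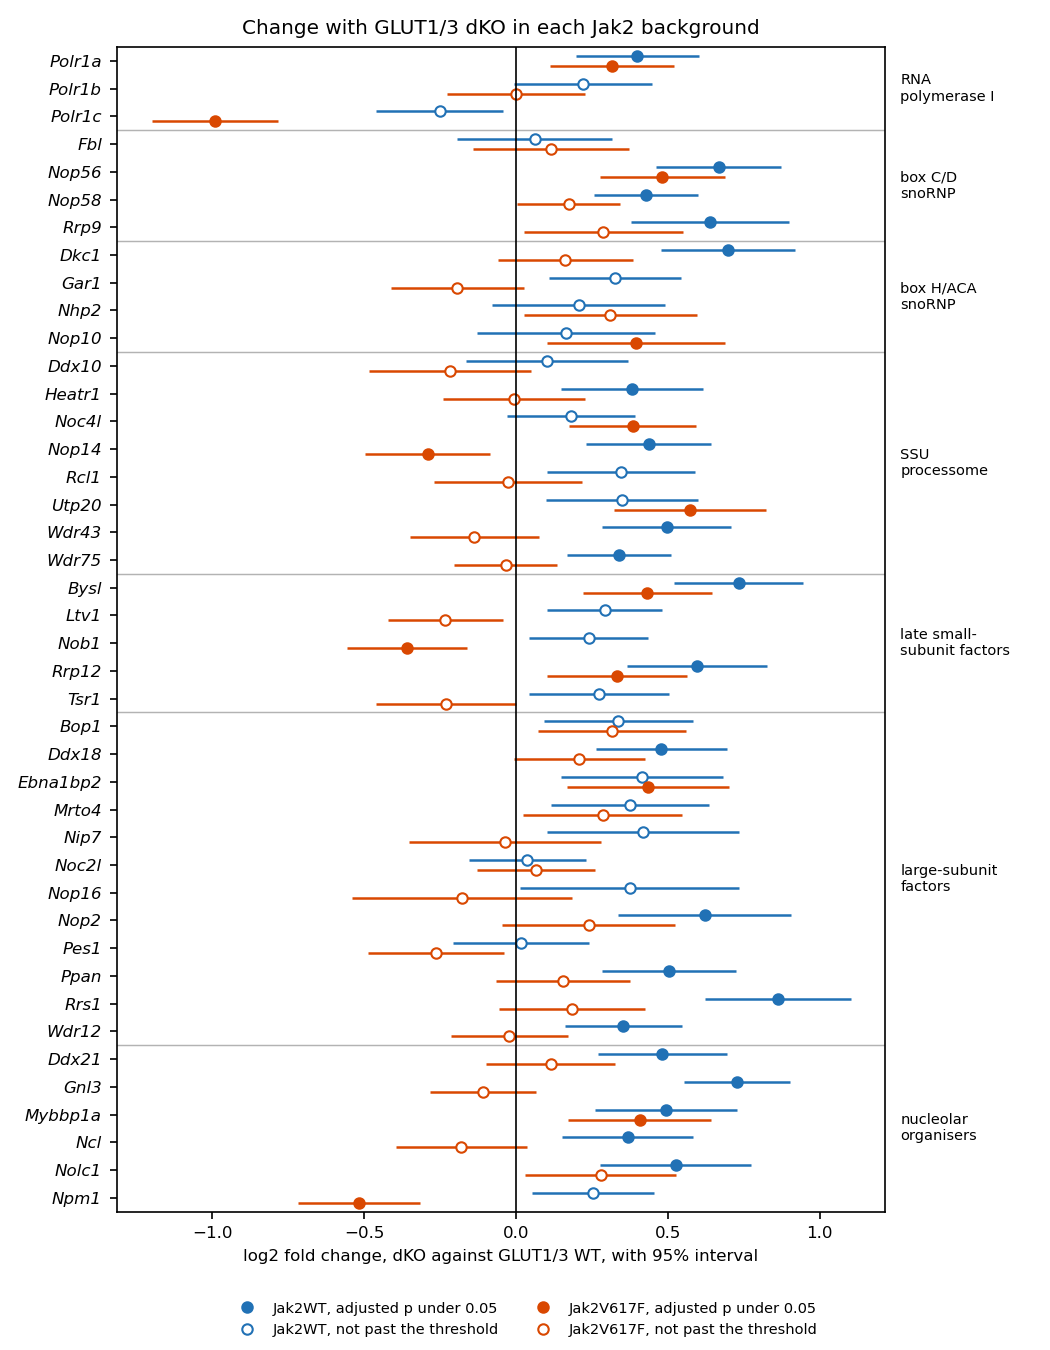
Points are log2 fold changes of each member (rows, grouped by role) for dKO against GLUT1/3 WT in Jak2WT (blue) and Jak2V617F (orange), with 95% intervals from limma; filled points passed an adjusted p of 0.05. The 21 filled blue points all lie to the right of 0, while filled orange points lie on both sides, 9 to the right and 4 to the left.

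In Jak2V617F cells the members did not share 1 direction with the same loss, and their share of rises was nearer that of all genes than in Jak2WT. Of the 42, 9 (21.4%) rose and 4 (9.52%) fell in limma, against 13.7% of all genes that rose and 16.2% that fell, and the median log2 fold change was 0.11, against -0.02 for all genes. Both dKO clones lay above both GLUT1/3 WT clones for 21 members (29.9% of all genes) and below them for 13 (34.4% of all genes). The rises were in Utp20, Nop56, Bysl, Ebna1bp2, Mybbp1a, Nop10, Noc4l, Rrp12 and Polr1a, and the falls in Polr1c, Npm1, Nob1 and Nop14. Of these calls, those of Nop14, Nop10, Rrp12 and Polr1a were lost under 11, 10, 9 and 8 of the 15 other settings. With every library scaled to the same summed FPKM, 19 members rose and 3 fell, and of all genes 2192 rose and 1452 fell, in place of 1614 and 1919. Proliferation markers moved in the same comparison, with 8 of 10 higher, and 5 of the 7 erythroid markers tested were higher and 1 lower, 2 of the 4 megakaryocyte markers were higher and 4 of the 6 myeloblast markers were lower. The number of rises fell to 2 without Jak2V617F GLUT1/3 WT clone 3, to 4 without Jak2V617F GLUT1/3 dKO clone 1 and to 5 without Jak2V617F GLUT1/3 WT clone 1. It was 6 without each of Jak2V617F GLUT1/3 dKO clone 3, Jak2WT GLUT1/3 WT clone 1 and Jak2WT GLUT1/3 WT clone 3, and the number of falls was 2 without Jak2V617F GLUT1/3 WT clone 1 or Jak2V617F GLUT1/3 dKO clone 3.

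Polr1c fell the most. It was at 61.7 and 58.0 FPKM in the Jak2V617F GLUT1/3 WT clones and at 28.7 and 30.5 in the dKO clones, close to its level of 32.1 and 28.4 in the Jak2WT dKO clones. Its log2 fold change was -0.99, SE 0.09, adjusted p = 0.000583, and this call held under each of the 15 other settings, with a highest adjusted p of 0.0130. Of the other 2 polymerase subunits among the members, Polr1a rose from 8.57 and 8.41 to 10.9 and 10.7 FPKM (0.32), and Polr1b was at 15.0 and 15.0 FPKM against 14.4 and 15.6 in the controls with overlapping clones.

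Npm1 was at 1225 and 1186 FPKM in the controls and at 826 and 859 in the dKO clones. No dKO clone came near the controls, and the log2 fold change was -0.52, SE 0.09, adjusted p = 0.00490, though without a filter on low values its adjusted p was 0.127. The lower summed level of the dKO clones rested on this abundant gene: without Npm1 the members summed to 2303 and 2075 FPKM in the controls and to 2285 and 2285 in the dKO clones, which overlapped. Of the other nucleolar organisers, Mybbp1a rose, from 82.4 and 78.5 to 111 and 103 FPKM, with a log2 fold change of 0.41, SE 0.10, adjusted p = 0.0213. Gnl3 was at 50.1 and 47.6 FPKM against 52.7 and 52.7 in the controls and Ncl at 262 and 264 FPKM against 319.9 and 278 in the controls. Both were lower in each dKO clone, and neither passed the test (adjusted p = 0.308 for Gnl3 and 0.179 for Ncl). Nolc1 and Ddx21 did not pass either, Nolc1 with a log2 difference of 0.28.

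Among the snoRNP proteins, Nop56 was at 79.3 and 83.7 FPKM in the controls and at 109 and 119 in the dKO clones, with a log2 fold change of 0.48, SE 0.09, adjusted p = 0.00713 that held under every other setting. Nop10, the smallest protein of the box H/ACA particle, was at 89.6 and 104 FPKM against 79.4 and 67.7 in the controls, with a log2 fold change of 0.40, SE 0.12, adjusted p = 0.0495. These were the only snoRNP members past the threshold. The other H/ACA proteins were at 29.0 and 32.9 against 34.3 and 36.6 FPKM for Gar1, 83.2 and 83.4 against 79.3 and 69.6 for Dkc1 and 137 and 141 against 127 and 98.6 for Nhp2. Gar1 was lower and Dkc1 and Nhp2 were higher in both dKO clones, and no difference passed the test.

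Of the 8 SSU processome proteins 2 rose and 1 fell. Utp20, a very large repeat protein of the late processome, was at 8.92 and 9.60 FPKM in the controls and at 14.2 and 14.3 in the dKO clones, with a log2 fold change of 0.57, SE 0.11, adjusted p = 0.00798 that held under every other setting. Noc4l was at 27.2 and 26.3 FPKM against 21.6 and 19.0 in the controls, with a log2 fold change of 0.38, SE 0.09, adjusted p = 0.0178. Nop14, the binding partner of Noc4l in the processome, fell from 48.4 and 47.6 to 41.0 and 37.1 FPKM (-0.29, adjusted p = 0.0429). The clones did not overlap for either gene, and the Noc4l call was lost under 3 and the Nop14 call under 11 of the 15 other settings. Heatr1, Rcl1, Wdr43, Wdr75 and Ddx10 did not pass the test.

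Of the 5 late small subunit factors 2 rose and 1 fell. Bysl was at 11.6 and 10.3 FPKM in the controls and at 15.2 and 14.9 in the dKO clones, with a log2 fold change of 0.43, SE 0.09, adjusted p = 0.0123, and Rrp12 rose from 24.7 and 21.9 to 30.5 and 28.6 FPKM (0.33). Nob1, the nuclease that makes the final cut of small subunit rRNA, was at 23.5 and 21.9 FPKM against 29.7 and 29.1 in the controls, with a log2 fold change of -0.36, SE 0.08, adjusted p = 0.0180. Ltv1 and Tsr1 also lay below their controls in both dKO clones, at 37.2 and 40.7 against 47.6 and 44.3 FPKM and 37.7 and 36.5 against 47.1 and 40.6 FPKM, and did not pass (adjusted p = 0.0663 and 0.117).

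Of the 12 large subunit factors only Ebna1bp2, the partner of Rrs1, passed the test. It was at 28.0 and 25.4 FPKM in the controls and at 37.4 and 35.3 in the dKO clones, with a log2 fold change of 0.43, SE 0.11, adjusted p = 0.0267. Rrs1 itself was at 53.6 and 50.2 FPKM against 48.9 and 42.4 in the controls, higher in both dKO clones without passing (adjusted p = 0.213). Bop1 and Pes1, partners in the PeBoW complex, lay on opposite sides, at 40.8 and 35.7 against 31.1 and 29.8 FPKM and at 64.4 and 67.6 against 85.5 and 73.7 FPKM, with adjusted p-values of 0.0577 and 0.0765. Nop16 overlapped, at 42.9 and 56.5 FPKM against 60.7 and 51.3 in the controls.

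**Figure D3:**
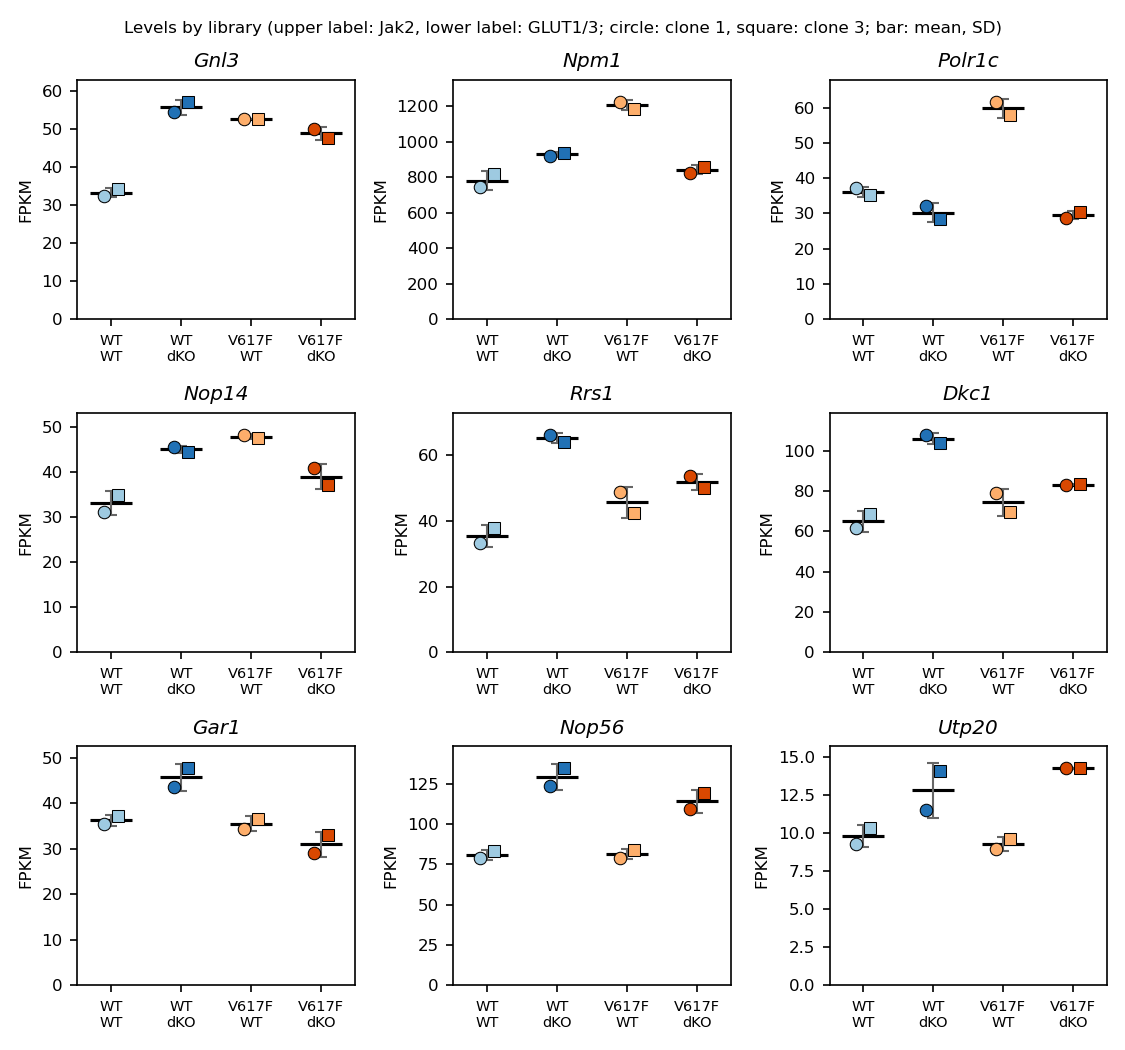
FPKM of 9 members in every library, with the clones as points (circle for clone 1, square for clone 3), the group mean as a bar and the SD of the 2 clones as whiskers; each axis starts at 0. Gnl3 is lowest in Jak2WT GLUT1/3 WT, Polr1c and Npm1 are highest in Jak2V617F GLUT1/3 WT, and Nop56 and Utp20 are higher in the dKO clones than in the GLUT1/3 WT clones of both backgrounds.

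Set side by side, the 2 dKO comparisons take their means from different libraries, while the spread in each test came from all 8. Bysl, Mybbp1a, Nop56, Polr1a and Rrp12 rose in both backgrounds. Another 15 members rose in Jak2WT and did not pass in Jak2V617F, 4 rose in Jak2V617F and did not pass in Jak2WT (Ebna1bp2, Noc4l, Nop10 and Utp20), and 3 fell in Jak2V617F and did not pass in Jak2WT (Nob1, Npm1 and Polr1c). Nop14 rose in Jak2WT and fell in Jak2V617F, and 14 members passed in neither. The difference between the backgrounds was tested by the interaction, the log2 fold change with dKO in Jak2V617F minus that in Jak2WT. It passed for 11 members, all with a negative value, and for 0 with a positive value, against 5.91% and 4.72% of all genes. At an unadjusted p under 0.05 there were 21 members. The median of the 42 was -0.35, against -0.04 for all genes, and 35 of the 42 values were negative. With every library scaled to the same summed FPKM, 8 members were negative and 1 positive, and of all genes 393 were negative and 1177 positive, in place of 698 and 558, with an all-gene median of 0.12. Of the 10 proliferation markers, 7 had a positive interaction, and 3 of the 6 myeloblast markers and 1 of the 4 megakaryocyte markers had a negative one.

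The 11 members were Gnl3, Npm1, Polr1c, Nop14, Rrs1, Wdr43, Nob1, Ncl, Dkc1, Ltv1 and Gar1. Gnl3 had the most negative value, -0.84, SE 0.11, adjusted p = 0.010, with a rise of 0.73 in Jak2WT and a difference that did not pass in Jak2V617F. For Npm1 the interaction was -0.77, SE 0.12, adjusted p = 0.0159, for Polr1c -0.74, SE 0.13, adjusted p = 0.0182, and for Nop14 -0.73, SE 0.12, adjusted p = 0.0182. Rrs1 had -0.68, SE 0.14, adjusted p = 0.0316 and Wdr43 -0.63, SE 0.13, adjusted p = 0.0279. These genes belong to 6 of the 7 roles, with no member of the box C/D particle among them. For Bysl, Mybbp1a, Nop56, Polr1a and Rrp12, which rose in both backgrounds, the interaction did not pass, with -0.30 for Bysl and -0.27 for Rrp12 as the largest in size, which does not show equal change. The count of 11 came to 0 without Jak2WT GLUT1/3 WT clone 1, Jak2WT GLUT1/3 WT clone 3 or Jak2WT GLUT1/3 dKO clone 1, to 2 without Jak2V617F GLUT1/3 WT clone 1, to 3 without Jak2WT GLUT1/3 dKO clone 3 and to 6 without Jak2V617F GLUT1/3 dKO clone 1. These calls were lost under 3 (Gnl3) to 11 (Gar1) of the 14 other settings. The interaction shares its libraries with both dKO comparisons.

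With the transporters present, many of the members were higher in Jak2V617F than in Jak2WT cells. This comparison and the dKO comparison in Jak2WT use the same 2 Jak2WT GLUT1/3 WT clones, so their results are not independent. Low values in these clones would raise the difference in both. The Jak2V617F GLUT1/3 WT clones are likewise shared with the dKO comparison in Jak2V617F. Among the GLUT1/3 WT clones 18 of 42 were higher and 0 lower in limma, against 15.3% of all genes higher and 14.9% lower, with a median log2 fold change of 0.27 against 0.01 for all genes. Both Jak2V617F clones lay above both Jak2WT clones for 32 members (35.8% of all genes) and below them for 3 (33.6% of all genes). The 5 late small subunit factors were all higher, as were 4 of 6 nucleolar organisers, 3 of 8 SSU processome proteins, 3 of 12 large subunit factors, 2 of 3 RNA polymerase I subunits and 1 of 4 box C/D proteins, and 0 of 4 box H/ACA proteins passed. With every library scaled to the same summed FPKM, 13 were higher and 3 lower, and of all genes 1223 were higher and 2930 lower, in place of 1812 and 1765, with an all-gene median of -0.12. In this comparison 8 of 10 proliferation markers were lower, 5 of the 7 erythroid and 2 of the 4 megakaryocyte markers tested were higher, and 2 of the 6 myeloblast markers tested were higher and 1 lower, and 1 of the 2 mast cell and basophil markers tested was lower, at a log2 fold change of -5.82. The count of 18 was 5 without Jak2WT GLUT1/3 WT clone 1, 9 without Jak2WT GLUT1/3 WT clone 3 and 8 without Jak2V617F GLUT1/3 WT clone 1.

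Polr1c showed the largest of these differences, at 59.9 ± 2.64 FPKM (SD, n = 2) in Jak2V617F against 36.2 ± 1.36 in Jak2WT, a log2 fold change of 0.71, SE 0.09, adjusted p = 0.00196. Gnl3 was at 52.7 ± 0.00359 against 33.3 ± 1.17 FPKM (0.65, SE 0.07, adjusted p = 0.00155), and Npm1 at 1205 ± 27.2 against 780.3 ± 52.1 FPKM (0.63, SE 0.09, adjusted p = 0.00254). The clones were far apart for these 3 genes, though the adjusted p of Npm1 was 0.0767 without a filter on low values. Of the late small subunit factors, Ltv1 was at 45.9 ± 2.36 against 30.1 ± 0.774 FPKM (0.59, SE 0.08, adjusted p = 0.00256), and Tsr1, a GTPase-like factor, at 43.8 ± 4.61 against 29.5 ± 1.83 FPKM (0.55, SE 0.10, adjusted p = 0.00649). Rrp12, Nob1 and Bysl were higher by 0.49, 0.47 and 0.39 on the log2 scale. Of the processome, Nop14 was at 48.0 ± 0.566 against 33.1 ± 2.63 FPKM (0.52, SE 0.09, adjusted p = 0.00518), and Wdr43 at 73.5 ± 5.46 against 51.2 ± 3.15 FPKM (0.51, SE 0.09, adjusted p = 0.00625). Nop14, Ltv1, Gnl3 and Polr1c kept this call under each of the 15 other settings. Heatr1 (0.40), Ddx21 (0.43), Rrp9 (0.39), Pes1 (0.37), Polr1b (0.36), Ncl (0.36), Rrs1 (0.35) and Noc2l (0.29) made up the rest of the 18. Nop10, Ebna1bp2 and Noc4l lay lower in both Jak2V617F clones, with log2 differences of -0.33, -0.29 and -0.27, and did not pass the test.

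Among the dKO clones the backgrounds differed in few members. Noc2l, a nucleolar protein of early large subunit particles, was higher in Jak2V617F, and Gar1 and Dkc1, both of the box H/ACA particle, were lower, against 7.12% of all genes higher and 9.96% lower. The median log2 fold change was -0.05, against -0.02 for all genes. Gar1 was at 43.6 and 47.8 FPKM in the Jak2WT dKO clones and at 29.0 and 32.9 in the Jak2V617F dKO clones, with a log2 fold change of -0.55, SE 0.09, adjusted p = 0.00921. Dkc1 was at 83.2 and 83.4 against 108 and 104 FPKM in Jak2WT, with a log2 fold change of -0.35, SE 0.09, adjusted p = 0.0457. Noc2l was at 63.8 and 59.97 against 48.3 and 50.2 FPKM in Jak2WT, with a log2 fold change of 0.32, SE 0.08, adjusted p = 0.0372, and it was also higher among the GLUT1/3 WT clones, 59.0 ± 1.30 against 48.0 ± 3.39 FPKM. The clones did not overlap for these 3 genes. Of the 18 members higher in Jak2V617F with the transporters, Noc2l alone passed here, and at an unadjusted p under 0.05 there were 5 members in all. The lone higher call was lost without any 1 of the 4 dKO libraries or either Jak2WT GLUT1/3 WT clone, and the count of lower members came to 0 without Jak2WT GLUT1/3 dKO clone 3 and to 1 without each of the other 5 of these libraries. Of the 7 erythroid markers tested 6 were higher in Jak2V617F here, as were 4 of the 4 megakaryocyte and 2 of the 10 proliferation markers, and 3 of the 6 myeloblast markers and 1 of the 2 mast cell and basophil markers were lower, the latter at a log2 fold change of -5.47.

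**Figure D4:**
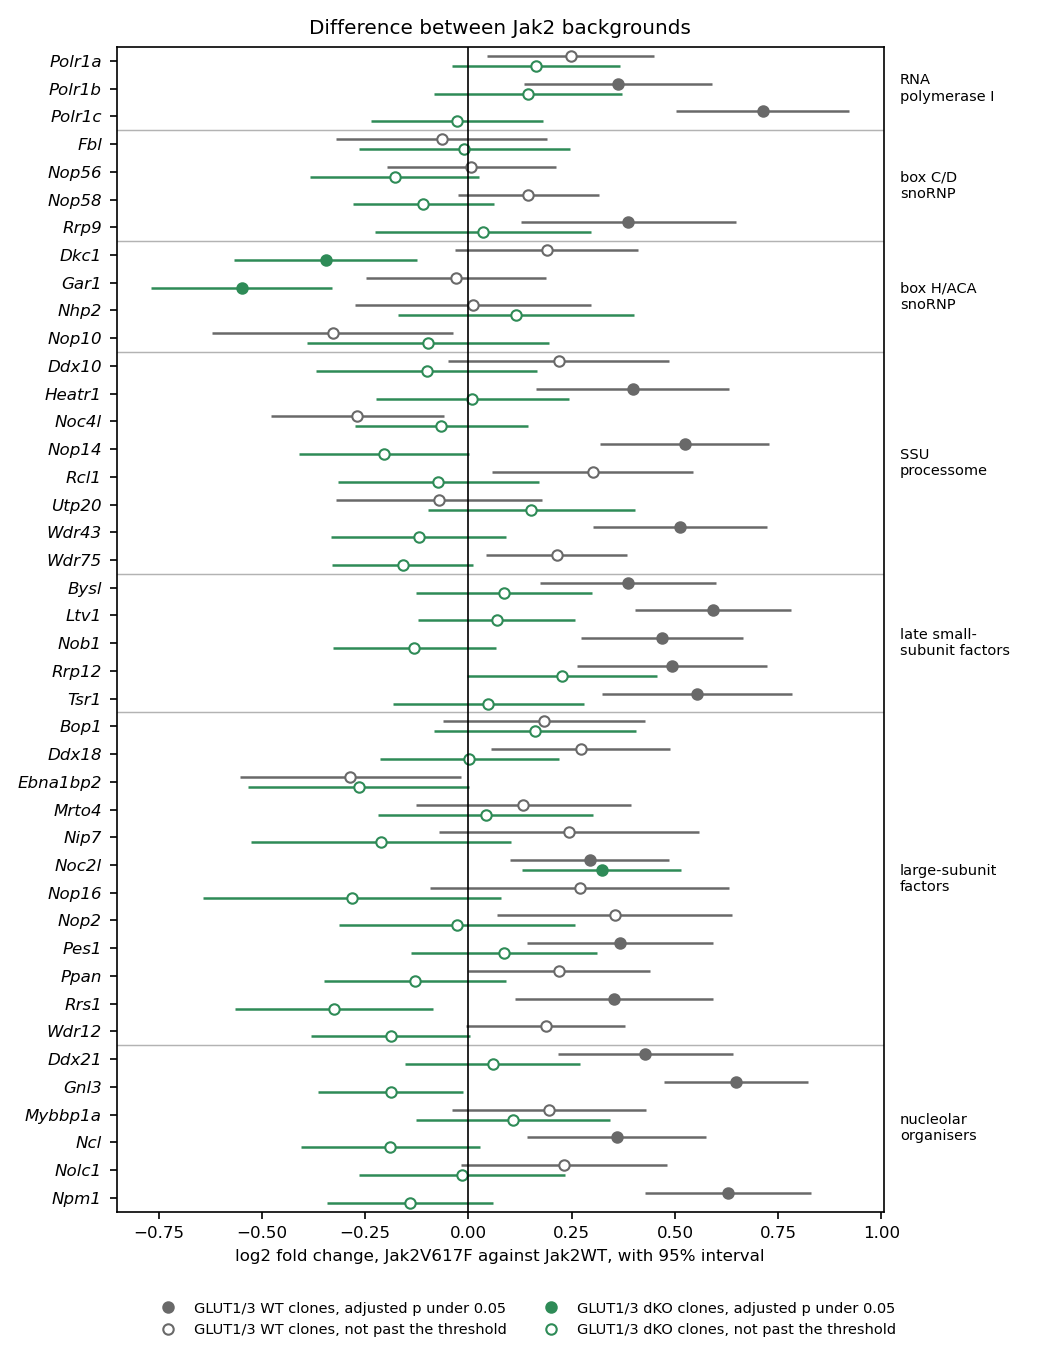
Points are log2 fold changes of each member for Jak2V617F against Jak2WT among GLUT1/3 WT clones (grey) and among GLUT1/3 dKO clones (green), with 95% intervals from limma; filled points passed an adjusted p of 0.05. The 18 filled grey points all lie to the right of 0, and 3 green points are filled.

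The rest of the pathway was counted over 4 further lists pooled, which hold other RNA polymerase I genes, factors of both subunits, and proteins of snoRNP assembly, the exosome and late maturation, and of which 137 of 144 genes were tested. With dKO in Jak2WT, 34 of the 137 (24.8%) rose and 1 (0.730%) fell, against 7.62% and 6.06% of all genes, and the median on the log2 scale was 0.23. In Jak2V617F, 20 (14.6%) rose and 12 (8.76%) fell (median 0.04), against 13.7% and 16.2% of all genes, so the share of rises was near that of all genes. Between the backgrounds, 42 (30.7%) were higher and 5 (3.65%) lower in Jak2V617F among the GLUT1/3 WT clones (median 0.17), against 15.3% and 14.9% of all genes, and 2 were higher and 5 lower among the dKO clones (median -0.05), against 7.12% and 9.96%. The interaction passed for 14 (10.2%) with a negative and 1 (0.730%) with a positive value, against 5.91% and 4.72% of all genes.

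Among the other genes with the largest changes, Mak16, a large subunit factor, rose with dKO in Jak2WT from 14.2 and 15.9 to 25.2 and 23.9 FPKM (0.67), and Rbm19 from 4.47 and 4.98 to 7.64 and 7.99 FPKM (0.62). Znhit6, an assembly factor of box C/D particles, rose from 10.1 and 9.96 to 15.2 and 17.6 FPKM (0.66) and was at 15.6 and 16.0 against 25.2 and 19.0 FPKM in Jak2V617F. Utp14b, a copy of the processome gene Utp14a, was the only 1 to fall in Jak2WT, from 5.77 and 6.20 to 4.37 and 4.61 FPKM (-0.35). With dKO in Jak2V617F, Znhit3, another box C/D assembly factor, rose from 4.90 and 5.07 to 7.42 and 9.89 FPKM (0.68). Polr1d, which pairs with Polr1c in the polymerase, fell from 31.4 and 25.4 to 18.2 and 15.6 FPKM (-0.71), and Mphosph6, a cofactor of the exosome, from 23.8 and 24.6 to 15.5 and 17.3 FPKM (-0.54). Polr1c and Polr1d thus both fell, while Polr1a rose. Nsa2, a large subunit factor, was at 61.8 and 62.7 FPKM in Jak2WT GLUT1/3 WT and at 105 and 91.5 in Jak2V617F GLUT1/3 WT (0.65). In the same comparison Znhit6 (1.05) was higher in Jak2V617F and Utp14b (-0.87), Znhit3 (-0.50) and Polr2l (-0.48), a subunit common to the RNA polymerases, were lower. Among the dKO clones Polr2e (0.53), another common subunit, and Wdr46 (0.40) were higher and Utp15 (-0.48), Mphosph6 (-0.41) and Utp3 (-0.39) lower in Jak2V617F.

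The snoRNA host genes, long RNAs whose introns hold snoRNAs, gave 2 rises and 0 falls of 10 in Jak2WT, against 7.62% and 6.06% of all genes, and 2 rises and 1 fall in Jak2V617F. Their median log2 fold change was 0.41 in Jak2WT and 0.02 in Jak2V617F. Gas5 and Snhg5 rose with dKO in Jak2V617F, from 12.5 and 16.9 to 20.9 and 26.2 FPKM (0.65) and from 14.9 and 17.4 to 23.7 and 27.9 FPKM (0.64). Snhg12 fell in the same comparison, from 10.8 and 11.3 to 5.01 and 7.21 FPKM (-0.78). In Jak2WT, Gas5 and Snhg5 were also higher in each dKO clone than in the controls. Gas5 was at 26.4 and 36.7 against 19.7 and 18.8 FPKM there, and Snhg5 at 28.2 and 31.4 against 20.9 and 18.2 FPKM. With 10 genes, these counts in Jak2V617F lie near the 13.7% of all genes that rose and 16.2% that fell. Among the GLUT1/3 WT clones Snhg17 was higher in Jak2V617F, at 12.4 and 19.5 against 10.4 and 8.22 FPKM (0.70).

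The 78 cytosolic ribosomal protein genes, the products that these factors assemble, gave these counts. With dKO in Jak2WT, 30 (38.5%) rose and 0 fell (median 0.33), against 7.62% and 6.06% of all genes. With dKO in Jak2V617F, 2 (2.56%) rose and 3 (3.85%) fell (median -0.04), against 13.7% and 16.2%. Among the GLUT1/3 WT clones 57 (73.1%) were higher in Jak2V617F and 0 lower (median 0.47), against 15.3% and 14.9%, and among the dKO clones 0 passed in either direction in limma, with 8 at an unadjusted p under 0.05, against 7.12% and 9.96% of all genes that passed. The interaction passed for 14 (17.9%) with a negative and 0 with a positive value (median -0.39), against 5.91% and 4.72%. No test of the members against the ribosomal proteins was made.

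Myc was at 101 and 105 FPKM in the Jak2WT GLUT1/3 WT clones, 122 and 125 in their dKO clones, 160.2 and 154 in Jak2V617F GLUT1/3 WT and 124 and 104 in Jak2V617F GLUT1/3 dKO. Its highest levels were in Jak2V617F GLUT1/3 WT, which held the highest mean of 11 of the 42 members, and the Jak2V617F GLUT1/3 dKO clones overlapped with both Jak2WT groups. Myc was higher in Jak2V617F among the GLUT1/3 WT clones (0.60, SE 0.10, adjusted p = 0.00474) and fell with dKO in Jak2V617F (-0.47, SE 0.10, adjusted p = 0.0121), and its difference with dKO in Jak2WT, 0.25, did not pass (adjusted p = 0.126). The interaction for Myc was -0.72, SE 0.14, adjusted p = 0.0248. Of the 7 members with CACGTG in the printed stretches, 3 rose with dKO in Jak2WT and 2 rose with dKO in Jak2V617F, and 4 were higher in Jak2V617F among the GLUT1/3 WT clones. Of the 30 members whose window lacks these letters, the counts were 16, 6 and 11, and the shares of all genes were 7.62%, 13.7% and 15.3%. With dKO in Jak2V617F 0 of the 7 and 3 of the 30 fell, against 16.2% of all genes.

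**Figure D5:**
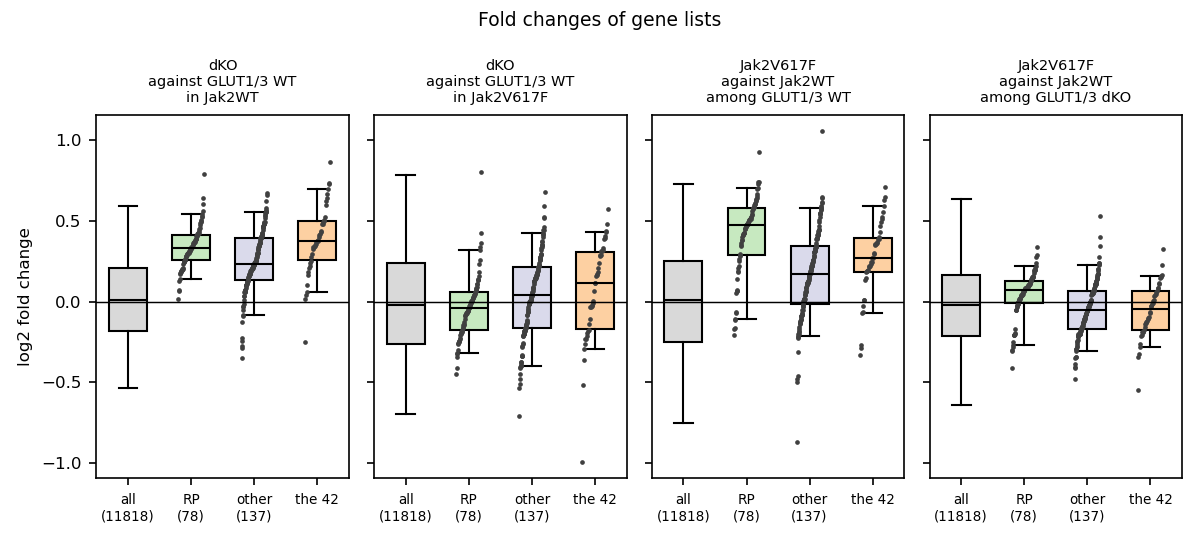
Box plots of log2 fold changes in 4 comparisons for all 11818 genes tested, 78 cytosolic ribosomal protein genes (RP), 137 other ribosome biogenesis genes (other) and the 42 members; boxes span the quartiles with the median as a line, whiskers the 5th to 95th percentile, and dots are single genes of the 3 lists. The median of the members is 0.38 with dKO in Jak2WT and 0.11 with dKO in Jak2V617F, and 0.27 and -0.05 in the background comparisons.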

How the data were processed

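Reads had been cleaned with fastp (1.0.1), aligned to mm39 with HISAT2 (2.2.1) and counted per gene with featureCounts (2.0.6) by the authors, and FPKM values were deposited. The annotation version, the strand setting and the library total behind the FPKM are not given in the sources used here. The libraries were made from poly(A) RNA and read as pairs of 150 bases. FPKM times gene length, scaled by a factor estimated for each library, gave whole reads for 100% of values, within 0.01 of a read.

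All 8 library columns were assigned to groups from the labels, with 0 left out. Genes with at least 1 FPKM in at least 2 of 8 libraries were tested (11818), with the limma package (3.58.1, under R 4.3.3) applied to log2(FPKM + 1), a pseudocount of 1 that understates the change of low genes, with 1 mean for each of the 4 groups and a trend in the empirical Bayes step. This left 4 residual and 3.34 prior degrees of freedom. P-values were two-sided and adjusted by Benjamini-Hochberg over all genes tested in each of 5 comparisons, with a threshold of 0.05. An exact permutation test of 2 against 2 clones cannot go below 0.33, so none was made. The deposited values are not counts, and a limma voom fit with TMM scaling on the recovered reads was an alternative. Others were a pseudocount of 0.1, no filter, 2 other scalings, a replicate block, a fit without the groups outside a comparison, and leaving out each library.

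The members and all gene lists were chosen with earlier results of these data known. Named genes were all members, Myc, the targeted genes, and for each comparison up to 3 further pathway genes in each direction with the largest change among those past the threshold with clones apart. Full statistics were limited to 10 members a comparison, and members not past the threshold are given a fold change only from 0.2 upwards in size. Sequences came from RefSeq (GRCm38.p6), whose coordinates differ from those of mm39. Figures were drawn with Python and matplotlib.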

Additional observations from a re-analysis of the deposited data

Results flagged for a closer look

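The change with dKO differed between the Jak2 backgrounds by the interaction test for 16 of the genes named above, at an adjusted p under 0.05 in limma. Of the members, Gnl3 (-0.84), Npm1 (-0.77), Polr1c (-0.74), Nop14 (-0.73), Rrs1 (-0.68), Wdr43 (-0.63), Nob1 (-0.60), Ncl (-0.55), Dkc1 (-0.54), Ltv1 (-0.52) and Gar1 (-0.52) had a lower log2 fold change in Jak2V617F than in Jak2WT. Outside the members, Znhit6 (-1.10), Snhg12 (-0.86), Nsa2 (-0.85) and Myc (-0.72) had a lower and Utp14b (0.79) a higher one. For Nob1, Npm1, Polr1c and Nop14 the Jak2V617F change was itself a fall, whereas for Gnl3, Rrs1, Wdr43, Ncl and Dkc1 the gain was in Jak2WT and the Jak2V617F difference did not pass. Of the members' calls, that of Gnl3 was lost under 3, those of Polr1c and Npm1 under 4, that of Nop14 under 5, those of Wdr43, Rrs1 and Nob1 under 7, those of Ltv1 and Ncl under 9, that of Dkc1 under 10 and that of Gar1 under 11 of the 14 other settings.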

How the results depend on the processing

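Of the 66 calls of members, 0 reversed and 8 held under each of the 15 other settings: Polr1c, Nop56 and Utp20 with dKO in Jak2V617F, Gnl3 with dKO in Jak2WT, and Polr1c, Nop14, Ltv1 and Gnl3 between the backgrounds among the GLUT1/3 WT clones. The calls of Polr1c share the Jak2V617F GLUT1/3 WT clones, and those of Gnl3 share the Jak2WT GLUT1/3 WT clones. The values below are given where a count moved by more than 1.5 times or a median by more than the clone spread, and the cause was not tested.

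With dKO in Jak2V617F, 4 members rose and 2 fell without a filter on low values, 19 rose (median 0.21) with the same total, 14 rose with voom, and 2 rose and 2 fell with only the groups compared, where 764 of all genes rose and 853 fell. With dKO in Jak2WT, 402 of all genes rose and 312 fell without a filter, 1 member fell (median 0.28) and 1378 of all genes fell with the same total, and 1197 of all genes fell with voom. Among the GLUT1/3 WT clones, 3 members were lower in Jak2V617F (median 0.12) and 2930 of all genes with the same total, 1 member with the median ratio and 2 with voom. Among the dKO clones, 0 members were higher and 1 lower without a filter and with only the groups compared, where all genes gave 714 lower and then 436 higher and 592 lower. The interaction gave 3 negative members without a filter (165 positive and 181 negative of all genes), 1 positive member (median -0.17) and 1177 positive and 393 negative of all genes with the same total, and 902 positive of all genes with voom.

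Leaving out each library in turn gave, with dKO in Jak2V617F, 2 to 8 members higher, 2 to 4 lower, a median of 0.06 to 0.14, and 1079 to 1358 of all genes higher and 1017 to 1684 lower. With dKO in Jak2WT it gave 1 to 22 members higher, 0 lower, a median of 0.29 to 0.45, and 74 to 1077 of all genes higher and 36 to 897 lower. Among the GLUT1/3 WT clones it gave 5 to 19 higher, 0 to 1 lower, a median of 0.21 to 0.37, and 802 to 2025 of all genes higher and 746 to 1944 lower. Among the dKO clones it gave 0 to 1 higher, 0 to 2 lower, a median of -0.08 to -0.05, and 272 to 804 of all genes higher and 348 to 1220 lower. For the interaction it gave 0 to 9 negative members, a median of -0.38 to -0.27, and 2 to 502 of all genes positive and 3 to 754 negative.

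The clones share only a number: their deviations correlated between groups at r = -0.25 to 0.15 across genes, which does not pair them. With the clone number as a replicate block, 7 members rose and 3 fell with dKO in Jak2V617F, 19 rose in Jak2WT, 16 were higher among the GLUT1/3 WT clones, 0 were higher and 1 lower among the dKO clones, and 8 had a negative interaction. Each group holds 2 clones, which limits the precision of every value.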
